A study of Danio rerio with 5 samples.

Results

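Transforming growth factor beta (Tgf-beta) ligands, a receptor, Smad proteins and associated matrix genes were examined in regenerating caudal fins of zebrafish. The genes were chosen by name from the deposited tables of gene reads: tgfb1a, tgfb1b, tgfb2, tgfb3, tgfbr1a, tgfbi, ltbp1, smad3a, smad3b and smad7. These 10 names matched 11 of 31540 rows, because ltbp1 is held as 2 overlapping gene models, and all 11 rows were among the 19034 that passed the low-count filter. The study sequenced RNA from regenerated fin tissue in 3 libraries labelled 24h and 2 libraries labelled Control. Its design text compares fins at 1 and 3 days after amputation, and what the Control tissue is cannot be read from the labels. A rise or fall here means a higher or lower level in the 24h than in the Control samples, not a course in time. The labels read here give no strain, genotype, age or number of animals, so differences are read as 24h against Control, and p-values reflect how far these samples vary, possibly for technical reasons alone.

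Tgf-beta ligands are secreted in a latent form, bound to a propeptide and to latent Tgf-beta binding proteins in the matrix, and are released by proteases and integrins. The free ligand brings together type II and type I receptor kinases, which phosphorylate Smad2 and Smad3; these enter the nucleus with Smad4 and regulate transcription. Smad7 is induced by the pathway and inhibits its type I receptors. In zebrafish fins, blocking the type I receptors of the Tgf-beta and activin branch with a small molecule stops regeneration.

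The total gene reads ranged from 14958600 to 22341452 a library. Over all genes, intron reads made up 7.38% of the gene reads in 24h replicate 1 and 7.22% to 7.86% in the other 4 libraries. That library differed in its scaling and in the intron share of some members. Its deposited RPKM, reads per length of exon and library size, had been divided by 1.00 times the gene reads, against 1.097 to 1.1003 times in the other 4 libraries. Of the tgfb1a reads, 1.28% were intron reads in that library, against 4.13% to 4.76% in the other 4. Of the smad3b reads, 19.0% were intron reads there, against 31.8% to 35.1%, and of the tgfb2 reads 74.9%, against 50.6% to 57.6%. The tgfb2 share was thus higher there and the other 2 shares lower. Values without that library are given for tgfb2 exon reads, the count of members called on intron reads and the tgfb3 exon against intron change. Epidermal, connective tissue, osteoblast and endothelial markers were all detected in both groups. The summed level of 9 rows of connective tissue markers was 439 to 503 CPM in the 24h samples, against 3822 to 4137 in the Control samples. That of 8 osteoblast markers was 160 to 213 CPM in the 24h samples, against 11255 to 11473 in the Control samples. Most of the Control sum came from col10a1a (9.78 to 52.3 CPM in the 24h samples, against 10588 to 10802 in the Control samples). The summed level of 8 epidermal markers was 28990 to 37752 CPM in the 24h samples, against 32957 to 38162 in the Control samples. Most of it came from the keratin gene krt5 (20346 to 25700 CPM in the 24h samples, against 27811 to 33108 in the Control samples). The epidermal markers moved both ways: of 8 tested, krt4 (log2 fold change 1.02), cdh1 (0.64), tp63 (1.17) and cldni (1.11) were higher and krtt1c19e (-7.35) was lower in edgeR's test. Of 8 tested markers in each, 5 connective tissue and 5 osteoblast markers were lower and none higher in edgeR's test, and no marker of these lists was at 0 in a whole group. Lower markers and no higher ones were also found for endothelium (6 of 8 tested), pigment cells (5 of 5) and red cells (3 of 5). The same held for nerve and glia (2 of 2), macrophages (3 of 8), thrombocytes (2 of 4) and neutrophils (1 of 3). The lower thrombocyte rows were thbs1b, also a gene of the ligand activation list below, and mpl. Reads of mpl were 3, 3 and 3 in the 24h samples, against 14 and 10 in the Control samples. The thrombocyte rows gp1bb (0.89, edgeR adjusted p = 0.076) and itga2b (-0.50) did not pass. Among all genes tested 14.8% were lower. Of 8 blastema markers, 5 were higher and 2 lower. CPM here means reads scaled to library size with TMM factors.

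The ligand genes changed in opposite directions. In total gene reads of the 24h samples tgfb1a and tgfb2 rose and tgfb3 fell, while tgfb1b did not pass the test. Of the 11 member rows, 3 were higher and 4 lower in edgeR's quasi-likelihood test (Benjamini-Hochberg threshold 0.05), against 9.43% and 14.8% of all genes tested, or 24.3% in either direction. The higher rows were tgfb1a, tgfb2 and smad7, and the lower rows were tgfb3, tgfbi, the long ltbp1 model and smad3a. Over all 11 rows, the 24h values lay wholly above the Control values in 4 and wholly below in 6, against 27.7% and 29.1% of all genes tested, or 56.8% in either direction. In exon reads, 2 member rows were higher and 4 lower, against 10.1% and 15.8% of genes (25.8% in either direction). In exon-exon reads, which span a splice junction, 2 were higher and 4 lower, against 8.59% and 14.4% (23% in either direction). Below, fits without a Control library leave that group without a replicate, so a call lost there is not read as particular to its gene.

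**Figure D1:**
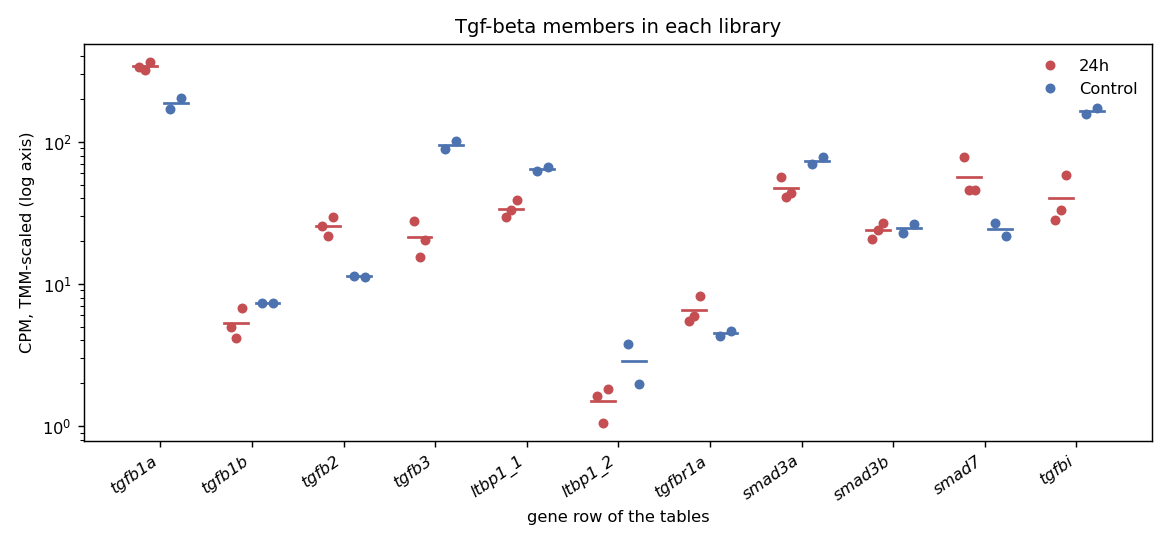
Level of each member in each library, as TMM-scaled CPM on a log axis; points are libraries (24h in red, Control in blue) and bars are group means; ltbp1_1 is the long and ltbp1_2 the short ltbp1 model. The 24h points lie above the Control points for tgfb1a, tgfb2, tgfbr1a and smad7, below them for tgfb1b, tgfb3, both ltbp1 models, smad3a and tgfbi, and among them for smad3b.

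The most abundant ligand gene was tgfb1a (ENSDARG00000041502), a zebrafish copy of TGFB1, on chromosome 15 from 2813834 to 2840227 (GRCz10). Its level was 333, 318 and 364 CPM in the 24h samples, against 169 and 203 CPM in the Control samples. Every 24h library was above both Control libraries. The log2 fold change was 0.87 ± 0.14 (SE), a 1.82-fold rise (95% interval 1.45 to 2.29), with an edgeR adjusted p of 0.0051. The call was lost without Control replicate 1, the lower Control value (0.74, adjusted p = 0.077). Exon reads alone gave 0.89 and exon-exon reads 0.87, both past the test. Of 8 epidermal markers tested, 4 were higher (log2 fold changes of 0.64 to 1.17), 1 was lower (krtt1c19e, -7.35) and 3 did not pass. Their summed level overlapped between the groups. Of 8 blastema markers tested, 5 were higher and 2 lower. The part of epidermal or blastema cells in the tgfb1a value was not tested.

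Its copy tgfb1b (ENSDARG00000034895), on chromosome 21 from 21584406 to 21593192, was expressed at a far lower level. It had 4.94, 4.15 and 6.75 CPM in the 24h samples, against 7.34 and 7.32 CPM in the Control samples. The groups did not overlap, but the log2 fold change of -0.48 ± 0.25 (SE) fell short in edgeR's test (adjusted p = 0.21). Of the summed length-scaled exon reads of the 2 copies, tgfb1b held 3.33% ± 0.589 (SD, n = 3) in the 24h samples, against 7.79% ± 0.585 (SD, n = 2) in the Control samples. Nearly all reads from this pair belonged to tgfb1a in every library.

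The ligand gene that fell was tgfb3 (ENSDARG00000019367), on chromosome 17 from 51987801 to 52020693. Its level was 27.8, 15.5 and 20.4 CPM in the 24h samples, against 89.2 and 101 CPM in the Control samples. All 24h values were far below both Control values. The log2 fold change was -2.16 ± 0.23 (SE), a 4.48-fold fall, with an edgeR adjusted p of 0.00081. It passed the test in all 18 alternatives, with log2 fold changes from -2.57 to -1.98. Connective tissue and osteoblast markers were lower in the same samples, as were those of several other cell types given above. The part of these cells in the tgfb3 value was not tested. In bulk tissue, fewer cells of a type and less RNA per cell cannot be told apart.

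Reads of the ligand gene tgfb2 (ENSDARG00000027087), on chromosome 16 from 2507340 to 2569861, came mostly from introns, and its model has only 1242 bases of exon. In total reads it was at 25.5, 21.6 and 29.7 CPM in the 24h samples, against 11.5 and 11.2 CPM in the Control samples. All 24h values were above the Control values, with a log2 fold change of 1.17 ± 0.18 (SE) and an edgeR adjusted p of 0.0038. In exon reads, 131, 216 and 197 in the 24h samples, against 97 and 84 in the Control samples, the change was 0.82 ± 0.30 (SE) and did not pass (adjusted p = 0.084). Without 24h replicate 1, the library with the fewest exon reads of the 3, the exon change was 1.03 ± 0.24 (SE) and passed (adjusted p = 0.032). This last setting was chosen after the values were seen.

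Per length of exon, the 4 ligand genes together reached similar totals in the groups while their makeup differed. Summed exon reads per kilobase of exon, scaled to library size, were 110, 98.8 and 118 in the 24h samples, a mean of 109 ± 9.58 (SD, n = 3), and 93.8 and 107 in the Control samples, a mean of 100.2 ± 9.03 (SD, n = 2). The sums of the groups overlapped. Of this sum tgfb1a held 81.5% ± 1.45 (SD, n = 3) in the 24h samples, against 47.7% ± 1.35 (SD, n = 2) in the Control samples. The share of tgfb3 was 8.12% ± 2.22 (SD, n = 3) in the 24h samples, against 43.6% ± 0.936 (SD, n = 2) in the Control samples. Shares are given as a description, and no test was made on them. A further ligand row, tgfb2l, whose identifier the table of gene names calls tgfb5, was added after its values were seen. It had 61.0, 77.2 and 63.4 CPM in the 24h samples, against 82.6 and 81.0 CPM in the Control samples (log2 fold change -0.28 ± 0.14, SE, edgeR adjusted p = 0.18). With tgfb2l in the sum, the mean share of tgfb1a was 71.8% in the 24h samples, against 40.7% in the Control samples. That of tgfb3 was then 7.17% in the 24h samples, against 37.1% in the Control samples. The share of tgfb2l itself was 11.9% in the 24h samples, against 14.9% in the Control samples.

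**Figure D2:**
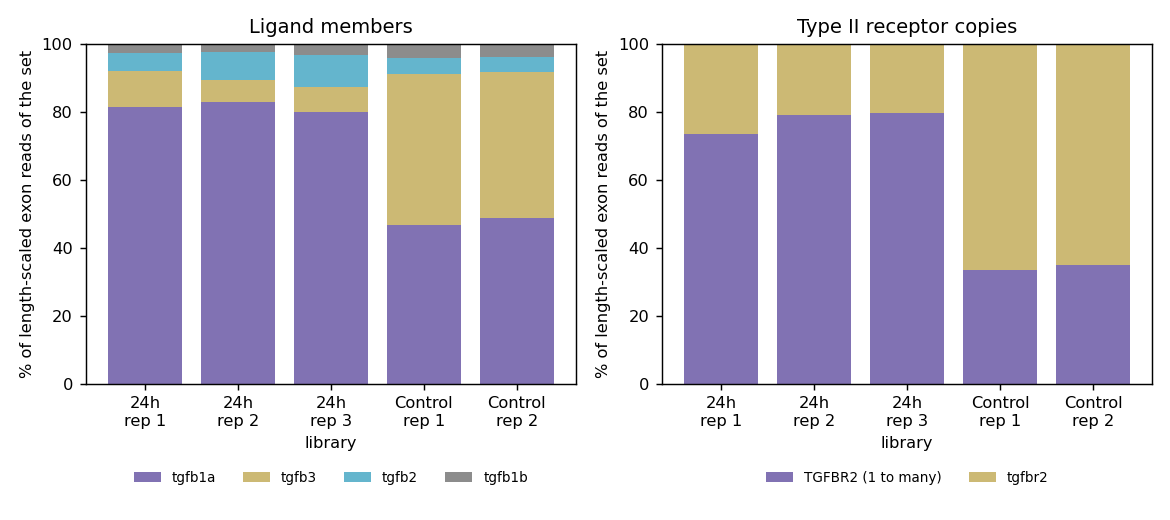
Stacked bars show, for each library, the share in percent of length-scaled exon reads held by each of the 4 ligand genes (left) and by the pair of type II receptor copies (right); 24h samples stand left of Control samples. In the 24h samples tgfb1a holds 80.1% to 83.0% of the ligand reads and in the Control samples 46.8% to 48.7%, and the TGFBR2 row marked "1 to many" holds 73.6% to 79.7% of the receptor reads in the 24h samples and 33.4% to 34.8% in the Control samples.

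The latent Tgf-beta binding protein gene ltbp1 was lower in the 24h samples. Its long model (ENSDARG00000056922), on chromosome 17 from 22936591 to 23097214, was at 29.6, 33.3 and 38.8 CPM in the 24h samples, against 62.0 and 66.9 CPM in the Control samples. Groups did not overlap, and the log2 fold change was -0.93 ± 0.14 (SE, edgeR adjusted p = 0.0040). The short model (ENSDARG00000097768), within 23079303 to 23098016 on the same strand, had 33, 25 and 28 reads in the 24h samples, against 72 and 30 in the Control samples, and did not pass (adjusted p = 0.12). The models overlap, and 62.6% of the reads of the long and 38.3% of the short model were unique, so their split is uncertain. The long model stayed past the test in all 18 alternatives, unique reads included.

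Among other genes of ligand release and storage, more rows were lower than higher, but the integrin and furin rows were not among the lower ones. Of 24 rows tested, 15 were lower, 2 higher and 7 not past edgeR's test, against 14.8% lower and 9.43% higher among all genes tested. The median log2 fold change was -0.90, against -0.0043 over all genes tested. In either direction 10 passed without Control replicate 2 and 11 without Control replicate 1. Among binding protein genes, ltbp3 averaged 76.1 ± 10.6 CPM (SD, n = 3) in the 24h samples, against 303 ± 16.98 (SD, n = 2) in the Control samples (log2 fold change -1.99 ± 0.15, SE). LTBP4, named after its values were seen, averaged 2.62 ± 1.11 CPM (SD, n = 3) in the 24h samples, against 25.6 ± 6.38 (SD, n = 2) in the Control samples, a change of -3.31 ± 0.33 (SE). The smallest p among the lower genes belonged to small proteoglycans that bind Tgf-beta or collagen. Asporin gene aspn changed by -3.10 ± 0.14 (SE), with 61.9% unique reads, and the biglycan gene bgna by -5.06 ± 0.27 (SE). The other biglycan gene, bgnb, had 0, 3 and 1 reads in the 24h samples, against 260 and 185 in the Control samples. The 2 higher genes were the integrin gene itgb5 (0.51 ± 0.13, SE, edgeR adjusted p = 0.031) and furinb (0.47 ± 0.14, SE, adjusted p = 0.043), which encodes a protease that cuts Tgf-beta propeptides. Both lost the call without either Control library and without 24h replicate 3, itgb5 also without 24h replicate 1 and furinb without 24h replicate 2. The other integrin and furin rows, itgav (-0.30), itgb6 (0.02), itgb8 (1.17) and furina (0.56), named after their values were seen, did not pass. Also named afterwards, thbs1b (-0.88), bmp1a (-0.997), bmp1b (-0.83) and mmp14a (-0.55, with 41.2% unique reads) were lower, and mmp14b (-0.11) did not pass. Levels of connective tissue and osteoblast markers moved in the same direction as the lower rows of this list, as given above. The part of these cells in the result was not tested.

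The type I receptor gene tgfbr1a (ENSDARG00000017494), on chromosome 2 from 24200394 to 24275885, was among the lowest members. Its level was 5.48, 5.93 and 8.18 CPM in the 24h samples, against 4.33 and 4.68 CPM in the Control samples. Although no 24h value was as low as a Control value, the log2 fold change of 0.53 ± 0.25 (SE, 95% interval -0.06 to 1.13) fell short in edgeR's test (adjusted p = 0.17). Its copy tgfbr1b gave 0.67 ± 0.23 (SE, adjusted p = 0.071), and held 72.4% ± 5.95 (SD, n = 3) of the length-scaled reads of the pair in the 24h samples, against 73.5% ± 2.00 (SD, n = 2) in the Control samples. For tgfbr1b the test was passed without 24h replicate 1 (0.86, adjusted p = 0.011), in DESeq2 (0.69, adjusted p = 0.044) and without a low-count filter (0.68, adjusted p = 0.049).

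The type II receptor rows include a pair of copies, and these changed in opposite directions. The row tgfbr2 (ENSDARG00000034541), on chromosome 16 from 39555131 to 39655629, carries a name that RefSeq gives as a synonym of tgfbr2b. Its level was 19.4, 18.2 and 19.7 CPM in the 24h samples, against 57.1 and 63.6 CPM in the Control samples, a log2 fold change of -1.66 ± 0.12 (SE, edgeR adjusted p = 0.00012). The row TGFBR2 (1 to many) (ENSDARG00000059363), on chromosome 19 from 1280247 to 1297680, was at 98.3, 117 and 132 CPM in the 24h samples, against 52.1 and 62.1 CPM in the Control samples. Its change was 1.02 ± 0.17 (SE, edgeR adjusted p = 0.0050), not past the test without Control replicate 1 (adjusted p = 0.058) or in exon-exon reads (0.77, adjusted p = 0.066). Neither row had overlapping group values. The length-scaled level summed over both copies was 33.5 ± 3.77 (SD, n = 3) in the 24h samples, against 37.3 ± 3.61 (SD, n = 2) in the Control samples. Of that sum, the chromosome 19 copy held 77.5% ± 3.33 (SD, n = 3) in the 24h samples, against 34.1% ± 1.01 (SD, n = 2) in the Control samples.

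Of all 11 receptor and co-receptor rows tested, 4 were higher, 3 lower and 4 not past edgeR's test, against 9.43% higher and 14.8% lower among all genes tested. The median log2 fold change was 0.56. Leaving out Control replicate 1 left 2 past the test, and leaving out Control replicate 2 left 4. Beside the chromosome 19 copy, bambia, which encodes a pseudoreceptor without a kinase that dampens Tgf-beta and Bmp signals, rose by 2.67 ± 0.45 (SE). It was at 437, 353 and 209 CPM in the 24h samples, against 33.6 and 71.0 CPM in the Control samples, but only 36.7% of its reads were unique. The others were its copy bambib (1.35 ± 0.35, SE), named after its value was seen, and acvr1l (0.56 ± 0.12, SE), a type I receptor gene of the Bmp branch. The lower rows were tgfbr2, the co-receptor gene tgfbr3 (-0.84 ± 0.19, SE) and acvrl1 (-0.54 ± 0.11, SE), a type I receptor gene known from endothelium. The call of bambib was lost without Control replicate 1 or without 24h replicate 1 or 2 and with no low-count filter. Those of acvr1l, tgfbr3 and acvrl1 were lost without either Control library, of tgfbr3 and acvrl1 also without 24h replicate 2, and of acvr1l in exon-exon reads. Endothelial markers summed to 25.1 to 26.0 CPM in the 24h samples, against 136 to 139 CPM in the Control samples. The level of acvrl1 was 77.4 to 83.0 CPM in the 24h samples, against 112 to 118 CPM in the Control samples. The part of endothelial cells in the acvrl1 value was not tested.

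Of the Smad3 copies, smad3a fell and smad3b did not pass the test. The gene smad3a (ENSDARG00000036096), on chromosome 7 from 33831511 to 33878117, was at 56.1, 41.0 and 43.5 CPM in the 24h samples, against 69.6 and 77.5 CPM in the Control samples. All 24h values were below the Control values, and the log2 fold change was -0.65 ± 0.16 (SE, edgeR adjusted p = 0.027). The call was lost without 24h replicate 2 or 3 and without either Control library (adjusted p = 0.054 to 0.16), and with limma on log2(RPKM + 1) (adjusted p = 0.0503). In exon-exon reads the change was -0.93 ± 0.19 (SE, adjusted p = 0.0099). The gene smad3b (ENSDARG00000010207), on chromosome 18 from 19783808 to 19817143, was at 20.8, 23.9 and 27.0 CPM in the 24h samples, against 22.9 and 26.5 CPM in the Control samples. These ranges overlapped, and the change was -0.05 ± 0.16 (SE, 95% interval -0.42 to 0.33, edgeR adjusted p = 0.86). Per length of exon, smad3a held 48.1% ± 4.53 (SD, n = 3) of the reads of the pair in the 24h samples, against 59.8% ± 0.882 (SD, n = 2) in the Control samples. The difference between the changes of the copies was not tested.

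The inhibitory Smad gene smad7 (ENSDARG00000016858), on chromosome 21 from 3270279 to 3301805, was higher in the 24h samples. It was at 78.7, 45.5 and 46.1 CPM in the 24h samples, against 26.9 and 21.9 CPM in the Control samples. Replicate 1 was the highest of the 24h samples, and every 24h library was above both Control libraries. The log2 fold change was 1.22 ± 0.27 (SE), a 2.33-fold rise (95% interval 1.48 to 3.65), with an edgeR adjusted p of 0.020. Its call was lost when Control replicate 1 (1.37, adjusted p = 0.089) or 2 (1.09, adjusted p = 0.13) was left out. Epidermal and blastema markers moved both ways in the same samples, as given above. The part of these cells in the smad7 value was not tested.

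Most other Smads and their regulators did not pass the test. Of 27 rows tested, 7 were higher, 1 lower and 19 not past edgeR's test. Among all genes tested 9.43% were higher and 14.8% lower, or 24.3% in either direction. The count in either direction was near that share, while by direction the list leaned to higher rows. The 24h values lay wholly above the Control values in 14 rows and wholly below in 1, against 27.7% and 29.1% of all genes tested. The median log2 fold change was 0.22. The count past the test was 4 without Control replicate 1, 2 without Control replicate 2 and 4 with limma on log2(TPM + 1). The smallest p belonged to skib (1.42 ± 0.14, SE), skia (0.89 ± 0.13, SE) and pmepa1 (0.85 ± 0.15, SE). Ski proteins repress Smad-driven transcription, and PMEPA1 binds and sequesters receptor Smads in mammalian cells. The level of skib was 179, 186 and 196 CPM in the 24h samples, against 63.4 and 76.7 CPM in the Control samples, and that of skia 283, 237 and 274 CPM in the 24h samples, against 143 and 141 CPM in the Control samples. Both genes passed the test in all 18 alternatives. For pmepa1, 48.2% of the reads were unique, and 97.8% to 98.8% were intron reads in each library. Its call was lost in exon reads (adjusted p = 0.062) and without either Control library. The 4 remaining higher rows, named after their values were seen, were smad9 (1.05), a Bmp-branch Smad, skila (1.03), smad6b (0.54), an inhibitory Smad, and strap (0.52). Without Control replicate 2 these 4 calls were all lost, and without Control replicate 1 all but that of smad9. The lower row was zfyve9a (-0.73 ± 0.15, SE), which encodes an anchor that brings Smad2 and Smad3 to receptors, and its call was lost without Control replicate 2. Also named afterwards, smad2 (-0.0031 ± 0.12, SE) and both SMAD4 rows (-0.10 ± 0.31 and 0.02 ± 0.14, SE) did not pass.

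**Figure D3:**
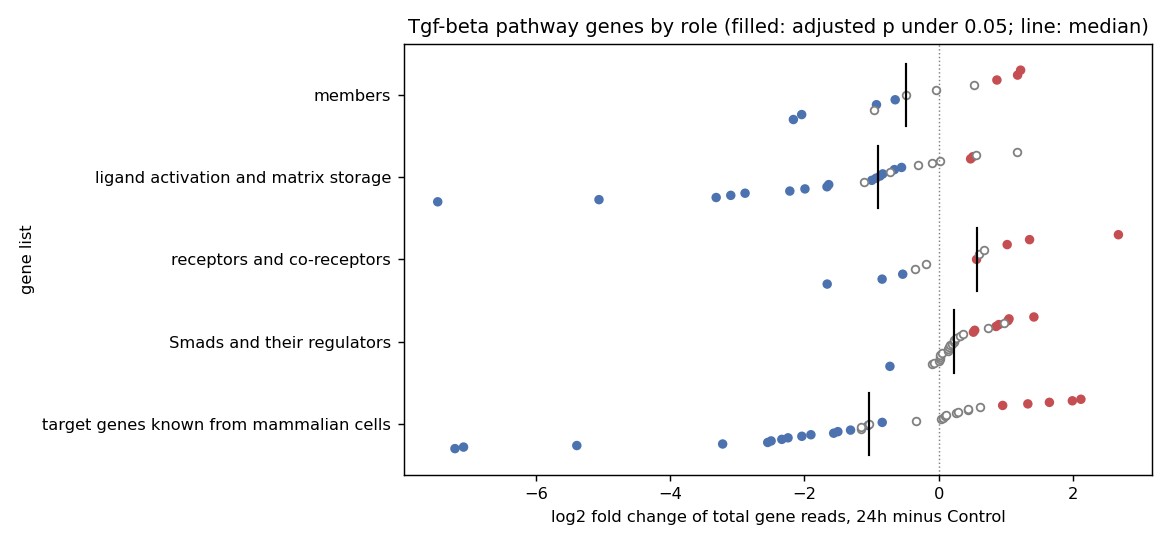
Log2 fold change of total gene reads, 24h minus Control, for each member and each gene of the 4 lists; vertical lines are list medians, points are filled red (higher) or blue (lower) when the adjusted p was under 0.05, and height within a row is only the rank. The ligand activation and target lists have medians of -0.90 and -1.03 and the receptor and Smad lists 0.56 and 0.22.

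The gene tgfbi (ENSDARG00000071586), on chromosome 14 from 26212936 to 26238399, encodes a secreted matrix protein that was first found as a Tgf-beta-induced transcript in human cells. It was at 28.4, 33.2 and 58.6 CPM in the 24h samples, against 156 and 173 CPM in the Control samples. All 24h values, of which replicate 3 was the highest, were below the Control values. The log2 fold change was -2.04 ± 0.30 (SE), a 4.12-fold fall, with an edgeR adjusted p of 0.0037, and it passed the test in all 18 alternatives. Connective tissue and osteoblast markers were lower in the same samples, as were those of several other cell types given above. The part of these cells in the tgfbi level was not tested.

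Genes known as Tgf-beta targets in mammalian cells moved both ways. Of 33 rows tested, 15 were lower, 5 higher and 13 not past edgeR's test, against 14.8% lower and 9.43% higher among all genes tested. The median log2 fold change was -1.03. The smallest p among the lower genes belonged to the lysyl oxidase gene loxa (-7.20 ± 0.27, SE), the periostin gene postna (-7.08 ± 0.26, SE) and the intermediate filament gene vim (-3.22 ± 0.21, SE). Of these, vim had 62.5% unique reads. Many lower genes of the list are matrix genes that connective tissue cells and osteoblasts also express. Markers of these cells were lower in the same samples, as given above, and their part in this list was not tested. The smallest p among the higher genes belonged to the collagenase gene mmp13a (1.99 ± 0.25, SE), the fibronectin receptor gene itga5 (1.33 ± 0.18, SE) and the early gene junba (1.65 ± 0.24, SE). The fibronectin genes fn1b (2.12 ± 0.33, SE) and fn1a (0.95 ± 0.19, SE) were the remaining higher genes, named after their values were seen, and the call of fn1a was lost without Control replicate 1.

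Reads assigned to introns gave a second readout of the same libraries, and whether they came from unspliced RNA was not tested. They made up 50.6% to 74.9% of the tgfb2 reads and 22.2% to 32.5% of the smad7 reads in single libraries. Over genes with 200 or more reads, the median intron share of a library was 4.46% to 5.47%. Among 10 member rows tested, smad7 (1.62 ± 0.33, SE, edgeR adjusted p = 0.020) and tgfb2 (1.40 ± 0.28, SE, adjusted p = 0.018) were higher and none was lower, against 2.16% and 4.77% of all genes tested on intron reads (6.93% in either direction). The number of members past the test was 3 without 24h replicate 1, 1 without 24h replicate 3 and 0 without either Control library. Reads of smad7 introns were 471, 297 and 231 in the 24h samples, against 113 and 74 in the Control samples. The intron reads of tgfb1a, 87, 358 and 239 in the 24h samples, against 132 and 141 in the Control samples, overlapped between groups, with replicate 1 far below the other two.

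For tgfb3 the intron reads fell short of the test where the exon reads passed it. There were 81, 52 and 50 intron reads in the 24h samples, against 86 and 101 in the Control samples, and 487, 313 and 265 exon reads in the 24h samples, against 1604 and 1433 in the Control samples. Intron reads made up 14.3%, 14.2% and 15.9% of the tgfb3 reads in the 24h samples, against 5.09% and 6.58% in the Control samples. The log2 fold change was -2.30 ± 0.24 (SE) in exon reads and -0.86 ± 0.34 (SE) in intron reads. The difference between these changes was -1.50 ± 0.28 (SE), past the test in an edgeR model over all genes with the library as block (adjusted p = 0.027). This model was chosen after the values were seen, and 0.925% of 12221 genes passed it in that direction (0.245% in the other, 1.17% in either). Among 10 member rows it was the only call. It held without 24h replicate 1 (-1.48, adjusted p = 0.0064) and was lost without any of the other 4 libraries, where the difference ran from -1.73 to -1.26 (adjusted p = 0.089 to 0.37).

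**Figure D4:**
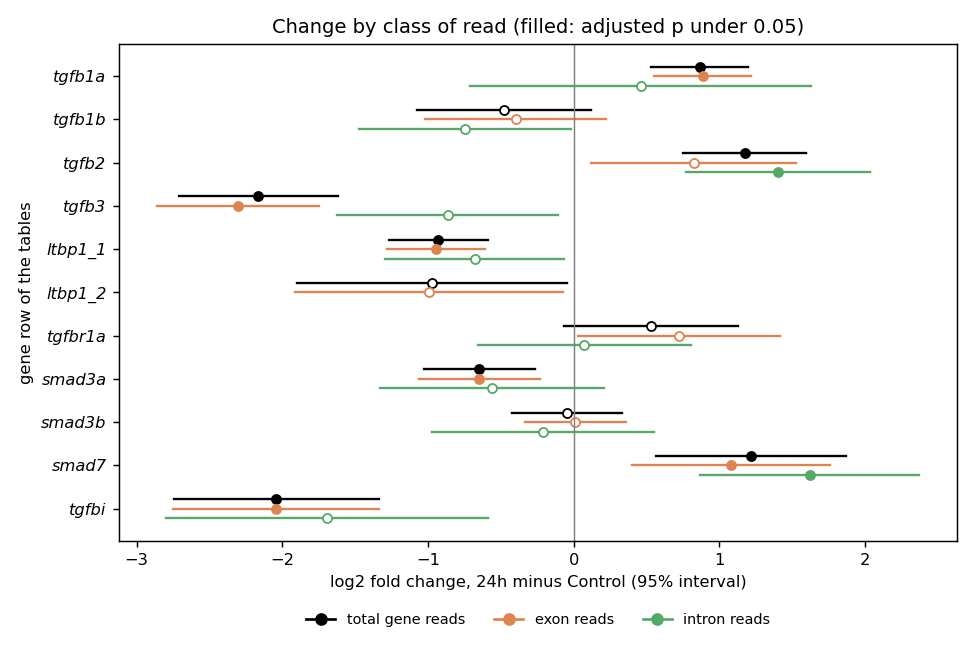
Log2 fold change of each member, 24h minus Control, in total, exon and intron reads, with 95% intervals; filled points passed the adjusted threshold and the short ltbp1 model had too few intron reads. For tgfb3 the exon point lies at -2.30 and the intron point at -0.86, while for smad7 the exon point lies at 1.08 and the intron point at 1.62.

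Compared per length of exon, the order of the members was not the same in the groups. In the 24h samples tgfb1a (88.6 ± 6.25, SD, n = 3, in the same length-scaled unit) stood above smad7 (21.7 ± 7.48) and tgfbi (14.2 ± 5.82). Next came tgfb3 (8.86 ± 2.63), smad3b (8.39 ± 0.415), tgfb2 (8.24 ± 2.79), smad3a (7.87 ± 1.56) and the long ltbp1 model (5.98 ± 0.797). The lowest were tgfb1b (3.08 ± 0.773), tgfbr1a (3.06 ± 0.894) and the short ltbp1 model (0.653 ± 0.176). From smad7 down to the long ltbp1 model, and for tgfb1b and tgfbr1a, neighbours in this order had overlapping ranges of mean ± SD. In the Control samples tgfbi (58.1 ± 3.91, SD, n = 2), tgfb1a (47.9 ± 5.66) and tgfb3 (43.6 ± 3.00) formed the top, with overlapping ranges for tgfb1a and tgfb3. They were followed by smad3a (12.3 ± 0.853), the long ltbp1 model (11.5 ± 0.564), smad7 (10.3 ± 1.58) and smad3b (8.31 ± 0.879). Neighbours among these overlapped in mean ± SD, but both smad7 values (11.4 and 9.14) were above both smad3b values (7.69 and 8.94). At the low end were tgfb2 (4.63 ± 0.216), tgfb1b (4.02 ± 0.149), tgfbr1a (1.84 ± 0.0171) and the short ltbp1 model (1.28 ± 0.568), of which the last pair overlapped in mean ± SD but not in single values.

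Among 73 pathway rows, members included, the profile nearest to tgfb1a over the 5 libraries was that of skia (Euclidean distance of centred log2 CPM 0.248), then the TGFBR2 row of chromosome 19 (0.295). For tgfb3 the nearest were ltbp3 (0.690) and tgfbr2 (0.793). The nearest to tgfb2 were skia (0.336) and tgfb1a (0.403), and to tgfb1b itgav (0.254) and mmp14a (0.311). These 5 libraries form 2 groups, so a small distance can come from the difference between the groups alone.

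Several members lie beside another Smad gene, named here for its position. On chromosome 7, smad3a is 33.7 kb from smad6a, and on chromosome 18, smad3b is 73.8 kb from smad6b, with no gene model between them in either pair. Beside the lower smad3a, smad6a gave a log2 fold change of 0.74 ± 0.27 (SE), not past edgeR's test (adjusted p = 0.088), and beside smad3b, smad6b gave 0.54 ± 0.15 (SE, adjusted p = 0.039). The smad6b call was lost without 24h replicate 1 or 2, without either Control library and in exon-exon reads. The gene tgfbi is 12.8 kb from smad5, which did not pass the test (0.19 ± 0.11, SE).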

How the data were processed

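RNA of regenerated caudal fin was sequenced in 5 libraries with a stranded mRNA kit, per the labels' protocols. The genome build was GRCz10, per the submitters' processing notes; the sources used here do not name the aligner, the counting program or the use of strand. Per the file headers, each deposited table holds whole-number counts of total, unique, exon, exon-exon and intron reads per gene, with RPKM and TPM values that the authors scaled for library size and exon length. The handling of PCR copies is not stated.

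Total gene reads were tested with edgeR 4.0.16 (R 4.3.3): quasi-likelihood F test on all 5 libraries, TMM, filterByExpr, robust dispersion, Benjamini-Hochberg adjustment over 19034 genes at 0.05. SE are the log2 fold change over the square root of F. Intron reads were tested likewise over 13277 genes. Length-scaled levels are exon reads per kilobase of exon scaled to library size with TMM factors. DESeq2 1.42.0 and limma 3.58.1 served as alternatives. Data simulated for this comparison (18611 genes) had the same spread for every gene and few changed genes. On them the test recovered 37 of 96 genes given a log2 change of 1 and 89 of 95 given a change of 2. There was 1 false call. In the real data 24.3% of genes tested were called, so these rates need not hold there.

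Members and lists were chosen with earlier results of these data known. Named genes were all members, the 3 genes of smallest p in each direction and list, and the pathway genes nearest to each ligand; others are marked. Sequences are not used here.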

Additional observations from a re-analysis of the deposited data

How the results depend on the processing

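Of the member changes in total reads, 7 passed the test, and 4 to 7 did when 1 library was left out, with 4 without Control replicate 1. Genes called over the whole table were 1794 higher and 2824 lower, and 418 to 1740 and 1372 to 2953 with 1 library left out. The lists gave 10 to 16 (ligand activation), 2 to 7 (receptors), 2 to 10 (Smads) and 17 to 23 (targets) called genes in those settings, and the Smad list 4 with limma on log2(TPM + 1). On intron reads 0 to 3 members passed with 1 library left out, and for exon against intron change 0 to 1.

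The sign of smad3b, which never passed, turned in exon reads (0.011) and limma on log2(RPKM + 1) (0.060) or log2(RPKM + 0.1) (0.068), and ran from -0.15 to 0.075 with 1 library left out. With 1 library left out the exon minus intron change also turned sign for smad3a (-0.53 to 0.12), smad3b (-0.077 to 0.43) and tgfb1a (-0.010 to 0.87), which passed in no setting. For tgfb2 the call was lost in limma on log2(TPM + 1) (0.68, adjusted p = 0.18), log2(RPKM + 1) (0.70, adjusted p = 0.092) and log2(RPKM + 0.1) (0.82, adjusted p = 0.083). It was also lost in edgeR on exon-exon reads (0.84, adjusted p = 0.10) and, as given above, on exon reads (0.82, adjusted p = 0.084). All of these settings leave out intron reads, which made up 50.6% to 74.9% of the tgfb2 reads. The cause was not tested. No paired analysis was possible because the labels give no replicate numbers; those used here only name the samples and pair none. Other scalings moved the median of all genes by at most 0.03. With 2 Control libraries, changes near a log2 fold of 1 are at the limit of this design.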
